A study of Mus musculus with 8 samples.

Results

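The 9 secreted Wnt antagonist genes Sfrp5, Sfrp1, Sfrp2, Frzb, Dkk1, Dkk3, Wif1, Sost and Notum were followed in costal chondrocytes of mice with and without the microRNA gene Mir324. Their rows were taken from a table of 52325 mouse genes by an exact match of the gene symbol, and all 9 were present once. The rule that chose them cites the comparison of genotypes. The genotype differences of the 9 genes are therefore given as a description and support no claim.

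Cells were released with collagenase from the rib cartilage of individual mice, 1 per library, 4 carrying the wild-type Mir324 gene (labelled wild-type control, WT here) and 4 labelled Mir324-null, with no treatment of either group. The labels state no strain, age, sex or construction of the null allele. Mir324 itself was listed at 0 TPM in all 8 libraries, so the genotype labels could not be checked from it. Values are TPM, a share of all transcripts, which correct for transcript length and for the size of the library, so levels of different genes can be set side by side but the number of reads behind a value is unknown.

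Wnt proteins are lipid-modified ligands that bind Frizzled receptors with the coreceptors LRP5 or LRP6 and stabilise β-catenin. Secreted antagonists act outside the cell at different steps. Secreted Frizzled-related proteins (Sfrp1, Sfrp2, Sfrp5 and Frzb, also called sFRP3) carry a Frizzled-like cysteine-rich domain that binds Wnt proteins, and Wif1 binds them through its own WIF domain. Dkk1 and sclerostin, the product of Sost, block the LRP coreceptors, and Notum is an esterase that strips the lipid from Wnt proteins. Dkk3 is a divergent member of the Dickkopf family whose effect on Wnt signalling varies between cell types. In cartilage and bone, Wnt signals influence chondrocyte maturation and bone formation, and sclerostin is best known as a product of osteocytes.

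MicroRNAs lower the transcripts they pair with through their seed, bases 2 to 8. The mature forms made from Mir324 are shown because their seeds define the sites sought in the 9 transcripts. Both are from RefSeq (GRCm38.p6, plus strand of chromosome 11), 5′ to 3′, with the seed in capitals.
mmu-miR-324-5p, chr11:70012060-70012082: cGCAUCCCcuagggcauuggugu
mmu-miR-324-3p, chr11:70012095-70012114: cCACUGCCccaggugcugcu

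Matches to these seeds were sought in the longest annotated 3′ UTR of each gene (GENCODE M21, GRCm38). Sfrp5, whose 3′ UTR of 714 bases belongs to the only antagonist with separated genotype groups, held 0 sites of either kind. Sfrp1, Sfrp2, Frzb, Wif1 and Notum also held 0. The 5p site GGGATGC was found in Dkk1 (1 site), and the 3p site GGCAGTG in Dkk3 (1 site) and Sost (2 sites). Over the 11295 tested genes with an annotated 3′ UTR, 8.42% held the 5p site and 15.7% the 3p site. The 4 sites lie on the minus strand and are printed in the sense of the transcript, with the match in capitals. A match of letters does not show that a site is used.
Dkk1, 5p site, chr19:30546280-30546286: gctgaggcagaGGGATGCccatgaactca
Dkk3, 3p site, chr7:112117802-112117808: ccatgggctgaGGCAGTGgctacacaaga
Sost, 3p site, chr11:101963578-101963584: atacaggacaaGGCAGTGtttccacctta
Sost, 3p site, chr11:101962556-101962562: ttgtagagaaaGGCAGTGttaatatcgct

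The labelled cell type was checked on its markers. Col2a1, the main collagen of cartilage, lay between 31940 and 43701 TPM, and the summed TPM of 8 chondrocyte markers lay between 38115 and 52094. Acan was at 564 to 788 TPM with overlapping groups, and Sox9 at 146 to 161 TPM in WT against 129 to 138 TPM in the null group. Other markers varied widely between libraries. The hypertrophic marker Col10a1 ran from 17.0 to 152 TPM, the osteoblast marker Col1a1 from 130 to 1065 TPM and the sum of 5 erythroid markers from 59.9 to 567 TPM. The 4 osteocyte markers other than Sost and Dkk1 (Dmp1, Phex, Mepe and Fgf23) were below 1 TPM in every library, with a sum of 0.273 to 0.536 TPM. Null replicate 3 stood apart, with a mean Spearman correlation of 0.865 with the other libraries against 0.895 to 0.914 for the rest, and with 25.0% of its TPM in pseudogenes against 17.7% to 19.1%. Genotype differences of the antagonists and of the pathway lists are given with and without it, and correlations between genes use all 8 libraries unless stated.

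The 9 antagonists spanned levels from Wif1, at a mean of 354 TPM over the 8 libraries, to Sost, at 0.0240 TPM. Wif1 ranked 377 and Frzb 1190 among 13910 genes tested, ordered by mean TPM. Wif1 was above Frzb (89.6 TPM), Frzb above Notum (26.2 TPM) and Notum above Sfrp2 (9.68 TPM) in 8 of 8 libraries, and the ranges of these neighbours did not overlap. Sfrp2, Sfrp1 (9.05 TPM), Dkk3 (6.66 TPM) and Sfrp5 (4.13 TPM) followed with overlapping ranges. The order of Sfrp2 over Sfrp1 held in 5 libraries and that of Sfrp1 over Dkk3 in 6, while Dkk3 exceeded Sfrp5 in all 8. The summed TPM of the 9 genes was 401 to 574 per library, of which Wif1 made 65.6% to 74.8%.

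**Figure D1:**
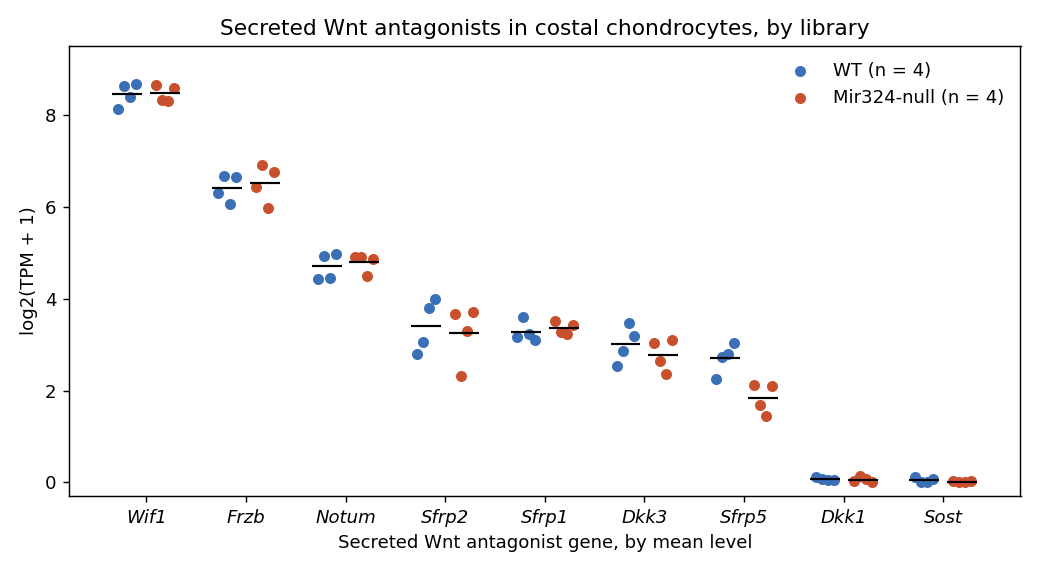
Level of each of the 9 antagonist genes, as log2(TPM + 1), in the 4 WT (blue) and 4 Mir324-null (orange) libraries; points are libraries and bars are group means. Groups overlap for every gene except Sfrp5, where the WT libraries run from 3.79 to 7.13 TPM and the null libraries from 1.71 to 3.35 TPM, and Dkk1 and Sost lie near 0.

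Positions are those of GENCODE M21 (GRCm38), and 2 pairs of genes share a chromosome, Sfrp5 with Dkk1 and Notum with Sost. Wif1 is at chr10:121033960-121100650 on the plus strand, Frzb at chr2:80411970-80447625 on the minus strand and Notum at chr11:120653788-120661175 on the minus strand. Sfrp2 is at chr3:83766321-83774316 and Sfrp1 at chr8:23411502-23449632, both on the plus strand. Dkk3 at chr7:112116017-112159057, Dkk1 at chr19:30545863-30549665 and Sost at chr11:101962458-101967015 are on the minus strand.

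Of the 9 genes, 7 reached at least 1 TPM in 4 or more libraries and entered the test; each of the 7 did so in all 8 libraries, so none passed through 1 genotype alone. In limma's test over 13910 genes, 0 of the 7 passed an adjusted p of 0.05, where 0.0216% of all tested genes passed. At an unadjusted p under 0.05 there was 1, Sfrp5, where 4.15% of all tested genes were. Every null library lay below every WT library for 1 of the 7, again Sfrp5, where this held for 1.7% of all tested genes. Because the set was chosen on this contrast, nothing is read from these counts. Of the 7 log2 fold changes, 4 were positive and 3 negative, with a median of 0.01, beside -0.05 over all tested genes.

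Sfrp5, a secreted Frizzled-related protein also known as an adipokine that binds Wnt5a, lies on chromosome 19 at 42197971 to 42202252 (GRCm38, minus strand). Listed here and below in the order of replicates 1 to 4, it stood at 3.79, 5.60, 5.98 and 7.13 TPM in the WT libraries against 3.35, 2.20, 1.71 and 3.28 TPM in the null libraries. The null libraries were all below the lowest WT library, and the gap between null replicate 1 and WT replicate 1 was small. The group means were 5.63 ± 1.39 TPM in WT and 2.64 ± 0.81 TPM across null libraries (SD, n = 4 each), a change of the mean by -53.1%. The log2 fold change on the log2(TPM + 1) scale was -0.87 (SE 0.23, 95% interval -1.39 to -0.35). Less Sfrp5 RNA per cell and fewer cells that make it cannot be told apart in bulk RNA.

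Ratios within a library do not depend on how libraries were scaled; those given here were computed from the same Sfrp5 values and are a description too. Sfrp5 divided by Sfrp1 was 0.473, 0.499, 0.717 and 0.949 in the WT libraries and 0.323, 0.252, 0.203 and 0.336 in the null libraries, so the groups were again apart. Sfrp5 made 21.4%, 23.2%, 22% and 24.2% of the summed TPM of Sfrp1, Sfrp2 and Sfrp5 in the WT libraries, and 13.2%, 14.8%, 9.04% and 13.1% in the null libraries. This share varied little among WT libraries (22.7 ± 1.25%, SD, n = 4) and lay lower in the null group (12.5 ± 2.45%, SD, n = 4). Its sum leaves out Frzb, the most abundant Frizzled-related gene, and the ratios to single genes varied more among WT libraries. The groups were also apart for Sfrp5 over Frzb (0.0491 to 0.0914 in WT, 0.0185 to 0.0391 in null) and for Sfrp5 over Col2a1, and they overlapped for Sfrp2 and Ucma as denominators. Sfrp5 over Sfrp2 ran from 0.463 to 0.762 in WT, and null replicate 2, at 0.557, lay inside that range.

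**Figure D2:**
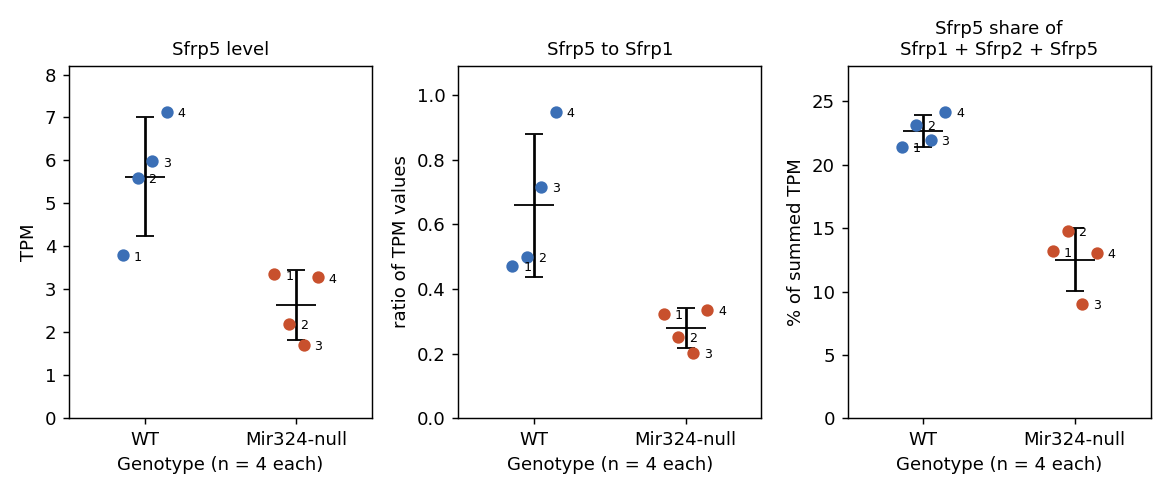
Sfrp5 in TPM (left), the ratio of Sfrp5 to Sfrp1 (middle) and Sfrp5 as a percentage of the summed TPM of Sfrp1, Sfrp2 and Sfrp5 (right) for each library, numbered by replicate; bars are means ± SD, n = 4. In all 3 panels the null libraries lie below the WT libraries, and in the right panel the WT libraries are bunched between 21.4% and 24.2%. The ratios of Sfrp5 to Sfrp2 and to Ucma, whose groups overlapped, are not shown.

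Other features of the libraries were set beside the Sfrp5 values. Without null replicate 3 the log2 fold change was -0.74, and with median-of-ratios scaling it was -0.83. Xist was above 1 TPM in 5 libraries, and the labels give no sex. These 5 were 3 WT and 2 null libraries, and the other 3 were 1 WT and 2 null libraries. The groups were apart for Sfrp5 over all libraries, so a split by Xist could not show otherwise. The part of sex in the Sfrp5 values was not tested. The 7 endothelial markers, none at 0 in every library, summed to 7.91 to 22.5 TPM in WT against 19.8 to 27.7 TPM in the null group. In replicate order the WT sums were 7.91, 9.17, 22.5 and 9.70 TPM, so only WT replicate 3 lay inside the null range. The 5 macrophage markers summed to 43.7 to 61.7 TPM in WT against 59.7 to 86.1 TPM in the null group. Most of that difference lay in Cd14 (33.5 ± 6.40 and 49.3 ± 8.73 TPM, SD, n = 4 each), while Cd68 was at 17.8 ± 3.05 and 18.7 ± 4.24 TPM and the group means of Csf1r, Lyz2 and Adgre1 were below 1 TPM. The part of endothelial cells or of Cd14-expressing cells in the Sfrp5 values was not tested. The sums of 5 resting chondrocyte markers overlapped between groups (881 to 1139 TPM in WT, 929 to 1119 TPM in null), as did those of 8 perichondrium and fibroblast markers (866 to 2363 and 1009 to 1862 TPM).

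The other Frizzled-related genes did not separate the genotypes. Frzb was at 77.2, 100.5, 65.4 and 99.6 TPM in the WT libraries against 85.8, 119, 61.7 and 108 TPM in the null libraries. Null replicate 2 was highest and null replicate 3 lowest, so the null group spanned the whole WT range. Its log2 fold change was 0.11 (95% interval -0.43 to 0.64), and 0.29 without null replicate 3. Sfrp1 was at 8.03, 11.2, 8.33 and 7.52 TPM in WT and 10.4, 8.73, 8.4 and 9.76 TPM in the null libraries. All null values of Sfrp1 lay inside the WT range, and the log2 fold change was 0.09 (95% interval -0.27 to 0.44).

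Sfrp2 was the most variable of the 7 genes, at 5.90, 7.35, 12.9 and 14.8 TPM in the WT libraries and 11.7, 3.95, 8.78 and 12.1 TPM in the null libraries. High and low libraries occurred in both genotypes. The within-group SD of log2(TPM + 1) was 0.61, beside a median of 0.30 over all tested genes, and the log2 fold change of -0.17 had a 95% interval of -1.05 to 0.71. Frzb made 70.6% to 88.9% of the summed TPM of the 4 Frizzled-related genes, which was 92.6 to 129 TPM in WT and 80.6 to 134 TPM in the null group.

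Wif1, the most abundant of the set, was at 281, 393, 332 and 406 TPM in the WT libraries and 399, 322, 316 and 381 TPM in the null libraries. The groups overlapped almost fully, with WT replicate 1 the lowest library and WT replicate 4 the highest. The log2 fold change was 0.01, with a 95% interval of -0.33 to 0.36 that bounds the difference on the log2(TPM + 1) scale. Notum was at 20.7, 29.5, 21 and 30.6 TPM in WT and 29.1, 29.0, 21.5 and 28.2 TPM in the null libraries. Libraries fell near 21 or near 29 TPM in both genotypes, and the log2 fold change was 0.09 (95% interval -0.32 to 0.50). The antisense genes Notumos, at 0.518 to 1.2 TPM, and Myadml2os, at 0.206 to 1.40 TPM, overlap Notum. Likewise Gm26771, at 0.164 to 0.523 TPM, overlaps Sfrp2 on the opposite strand. The labels do not state if reads were assigned by strand. Without null replicate 3 the log2 fold changes of Wif1, Notum, Sfrp1 and Sfrp2 were 0.07, 0.19, 0.13 and -0.18.

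**Figure D3:**
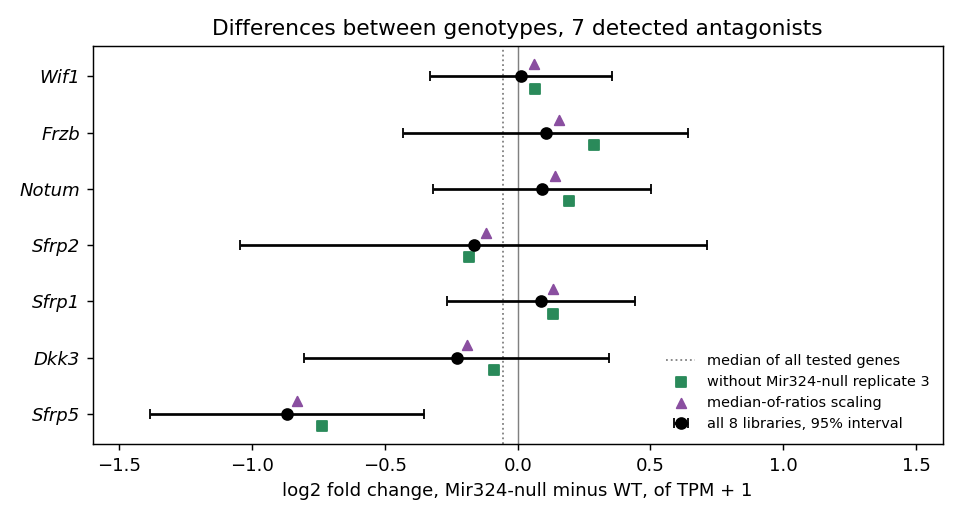
Log2 fold change (Mir324-null minus WT, on TPM + 1) of the 7 detected antagonists with 95% intervals from limma (black), the value without null replicate 3 (green squares) and the value after median-of-ratios scaling (purple triangles); the dotted line is the median of all tested genes, -0.05. The interval of Sfrp5, -1.39 to -0.35, lies below 0 and the other 6 intervals include 0. The intervals are not adjusted for the number of genes, and 0 of the 7 passed an adjusted p of 0.05 in limma's test. The set was chosen on this contrast, so the intervals are a description.

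Among the Dickkopf genes, Dkk3 was at 4.82, 6.27, 10.03 and 8.08 TPM in the WT libraries and 7.26, 5.21, 4.11 and 7.53 TPM in the null libraries. WT replicate 3 was highest and null replicate 3 lowest, with overlap between. The log2 fold change was -0.23 (95% interval -0.81 to 0.35), and -0.09 without null replicate 3. Dkk1 did not exceed 0.0994 TPM in any library and was listed at 0 in null replicate 4. Sost was listed at 0 in 4 libraries and did not exceed 0.0851 TPM. Dkk1 and Sost, the LRP-blocking members of this set, were thus at or near 0 in both genotypes, as were the 4 other osteocyte markers. Neither gene was tested.

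Variation within genotypes was compared among the members after each genotype's mean was removed, over 8 libraries. The relations examined were 21 pairs of members and 21 pairs of a member with the mean log2(TPM + 1) of chondrocyte, hypertrophic or fibroblast markers, 42 in all. Sfrp5 ran with Wif1 (Pearson r = 0.89, exact permutation p = 0.0174; Spearman rho = 0.93, exact permutation p = 0.0139; two-sided, orderings within genotype). Without the 2 libraries farthest from the median of Wif1, r was 0.78. Sfrp5 also ran with Dkk3 (r = 0.89, exact permutation p = 0.0208; rho = 0.74, exact permutation p = 0.0694), and r was 0.95 without the 2 farthest libraries. Both pairs were picked for their small p after the values were seen. After Benjamini-Hochberg adjustment over the 42 relations none passed, with a smallest adjusted p of 0.343 for r and 0.292 for rho (exact permutation tests).

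**Figure D4:**
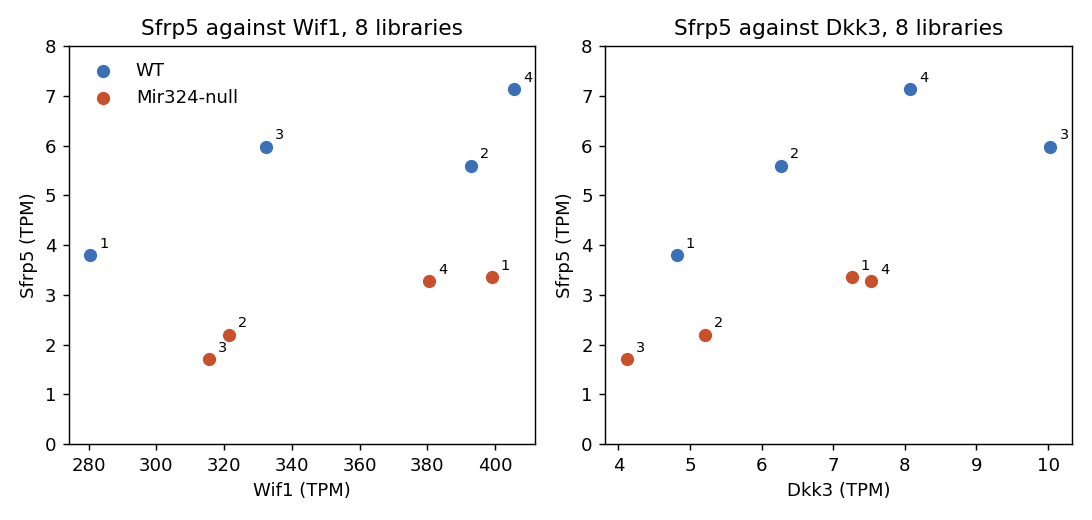
Sfrp5 against Wif1 (left) and against Dkk3 (right), in TPM, for each library, numbered by replicate within genotype; the Wif1 and Dkk3 axes do not start at 0. Within each genotype libraries with more Wif1 tended to have more Sfrp5. At a like Wif1 level (399 TPM in null replicate 1, 393 TPM in WT replicate 2) Sfrp5 was 3.35 TPM in the null and 5.60 TPM in the WT library. That pair was picked after the values were seen. The Sfrp5 groups do not overlap, so any such pair has the lower value in the null library.

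Dkk3 was also set beside the fibroblast markers, with r = 0.80 (exact permutation p = 0.0399) and rho = 0.83 (exact permutation p = 0.0312). Its adjusted p was 0.343 for r, and r was 0.77 without the 2 farthest libraries. Frzb and Notum gave r = 0.84 (exact permutation p = 0.0312; rho = 0.67, p = 0.0920), and r fell to 0.64 without WT replicate 3 and null replicate 3. Wif1 and Notum gave r = 0.82 (exact permutation p = 0.0434; rho = 0.88, p = 0.0104), with r = 0.71 without the 2 farthest libraries. The part of library quality or cell mixture in these relations was not tested.

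Genes whose levels were most like those of the 3 most abundant members were sought by the same within-genotype Pearson correlation over 8 libraries, among 11412 genes. For Wif1 they were Gpr180 (r = 0.98), Slc15a4 (r = 0.96) and Isyna1 (r = 0.96). For Frzb they were Dpf2 (r = 0.98), Mief2 (r = 0.98) and Gse1 (r = 0.97), and for Notum they were Smpdl3a, Bri3bp and Mrpl10 (r = 0.99, 0.98 and 0.98). With 8 libraries and this many genes such values describe these libraries only.

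Other genes of the pathway were taken from 6 lists by role, with 86 genes, 84 in the table and 53 tested. In limma's test 0 of the 53 passed an adjusted p of 0.05 and 0 had an unadjusted p under 0.05, and none had separated groups. Fold changes were positive for 14 and negative for 39, beside 5551 and 8359 over all tested genes, with a median of -0.11 beside -0.05. This split turned without null replicate 3, to 28 positive and 25 negative (median 0.02), beside 7507 and 6149 over all 13656 genes then tested (median 0.02).

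Of 10 further secreted or surface antagonists, 4 were tested, 1 with a positive and 3 with a negative log2 fold change (median -0.07). Without null replicate 3 the split turned to 3 positive and 1 negative (median 0.09). Igfbp4, a binding protein that also blocks Frizzled and LRP6, was at 64.9 ± 22.1 TPM for WT and 59.4 ± 28.6 TPM with the null genotype (SD, n = 4 each). Trabd2b, a membrane protease that inactivates Wnt proteins, was at 9.10 ± 2.20 and 10.4 ± 1.0 TPM, and Apcdd1, a membrane inhibitor, at 5.11 ± 0.74 and 4.67 ± 0.56 TPM (SD, n = 4 each). The group differences of these 3 were smaller than the spread within at least 1 group. Their log2 fold changes were -0.20, 0.20 and -0.10.

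Ligands were scarce. Of 19 Wnt genes, 15 did not reach the level for testing, and the 4 tested were all on the negative side, with a median log2 fold change of -0.32, or -0.23 without null replicate 3. Wnt11 was the most abundant, at 8.08 ± 1.44 TPM for WT and 6.89 ± 1.65 TPM with the null genotype, followed by Wnt5b at 1.58 ± 0.43 and 1.37 ± 0.34 TPM and Wnt10b at 1.83 ± 0.77 and 1.05 ± 0.28 TPM (SD, n = 4 each). Gene by gene, the most abundant antagonist, Wif1, was at 281 to 406 TPM over the libraries, and Wnt11 at 5.26 to 10.2 TPM. The means of Sfrp2 (9.68 TPM), Sfrp1 (9.05 TPM), Dkk3 (6.66 TPM) and Sfrp5 (4.13 TPM) lay on either side of the Wnt11 mean (7.49 TPM). The ligands that were not tested did not share 1 direction. Wnt4 had a higher null mean (0.547 TPM in WT, 0.855 TPM in null) and Wnt10a a lower one (0.235 and 0.0611 TPM). Both had separated groups at these low levels, narrowly for Wnt4, and were picked after their values were seen.

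Receptors and coreceptors gave 8 positive and 7 negative fold changes of 15 tested, with a median of 0.05, and 9 and 6 without null replicate 3 (median 0.06). Lrp6, the coreceptor that Dkk1 and sclerostin block, was at 31.5 ± 3.61 TPM for WT and 34 ± 9.32 TPM with the null genotype (SD, n = 4 each). Ryk, a Wnt receptor with a WIF domain, was at 25.8 ± 1.5 and 22 ± 4.0 TPM, and the Frizzled receptor Fzd9 at 17.8 ± 3.31 and 18.8 ± 3.38 TPM (SD, n = 4 each). The R-spondin list holds the ligands and their LGR receptors, which raise Frizzled levels at the membrane, and the ubiquitin ligase genes Znrf3 and Rnf43, whose products remove Frizzled from it. It gave 1 positive and 4 negative values of 5 tested (median -0.14), and 2 positive and 3 negative without null replicate 3, with a median of -0.0028. Lgr4, the most abundant of these receptors, was at 26.1 ± 2.55 and 24 ± 6.07 TPM, Lgr6 at 3.11 ± 2.27 and 3.8 ± 1.3 TPM, and the ligand Rspo3 at 3.10 ± 0.25 and 2.90 ± 0.79 TPM (SD, n = 4 each).

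Feedback and target genes gave 1 positive and 10 negative values of 11 tested, with a median of -0.17, and 3 positive and 8 negative without null replicate 3 (median -0.11). Myc, a growth factor-responsive transcription factor, was at 152 ± 2.43 TPM for WT and 149 ± 28.1 TPM with the null genotype, Cd44, a hyaluronan receptor, at 101 ± 25.1 and 94.6 ± 30.9 TPM, and Wisp1, a matricellular protein, at 22.2 ± 3.92 and 19.8 ± 5.90 TPM (SD, n = 4 each). Intracellular transducers gave 3 positive and 11 negative values of 14 (median -0.12), which turned to 11 positive and 3 negative without null replicate 3 (median 0.07). Ctnnb1, which encodes β-catenin, was at 483 ± 43.5 TPM for WT and 448 ± 116 TPM with the null genotype, the kinase gene Csnk1a1 at 122 ± 5.76 and 118 ± 22.8 TPM, and Axin1, a scaffold of the β-catenin destruction complex, at 47.0 ± 10.4 and 48.5 ± 4.09 TPM (SD, n = 4 each).

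**Figure D5:**
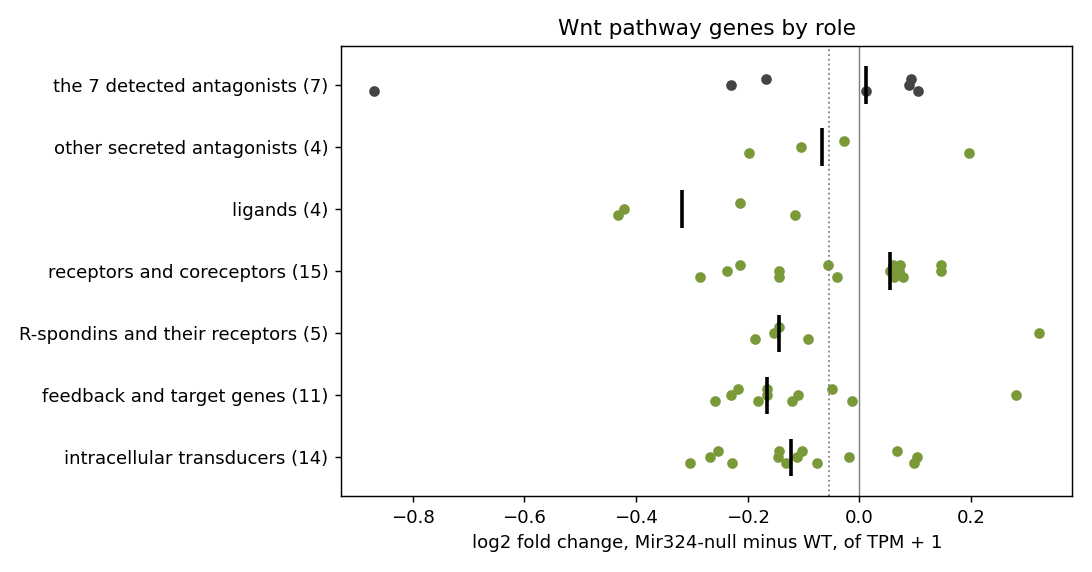
Log2 fold change (Mir324-null minus WT, on TPM + 1) of each tested gene in the antagonist set and in 6 further Wnt pathway lists, with the number of genes in parentheses; bars are list medians and the dotted line is the median of all tested genes. Sfrp5, at -0.87, is the point farthest from 0, and the 53 further genes lie between -0.43 and 0.32.

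Promoters of Sfrp5, the gene with separated groups, and Wif1, the most abundant, are shown for reference (RefSeq, GRCm38.p6, 250 bases before to 50 after the start). Entries were held for 6 of the 9 genes and none for Sfrp1, Dkk3 and Notum. Letters sought on both strands were the GC box GGGCGG, the CCAAT box CCAAT, the TATA box TATAAA, a TCF/LEF motif CTTTGA and a SOX motif ACAATG. They occur in 35.7%, 37.4%, 13.6%, 16.0% and 12.6% of 32851 RefSeq promoter entries. Capitals mark the matches: 2 GC boxes and 1 CCAAT box in Sfrp5, and 2 GC boxes and 1 TATA box match in Wif1.
Sfrp5, chr19:42202203-42202502, minus strand: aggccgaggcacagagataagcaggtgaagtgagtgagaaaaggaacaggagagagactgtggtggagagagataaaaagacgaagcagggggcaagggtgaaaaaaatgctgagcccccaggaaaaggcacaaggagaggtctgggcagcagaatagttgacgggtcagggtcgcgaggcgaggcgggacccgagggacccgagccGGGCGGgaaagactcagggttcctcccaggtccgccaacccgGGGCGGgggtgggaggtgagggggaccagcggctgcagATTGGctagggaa
Wif1, chr10:121033754-121034053, plus strand: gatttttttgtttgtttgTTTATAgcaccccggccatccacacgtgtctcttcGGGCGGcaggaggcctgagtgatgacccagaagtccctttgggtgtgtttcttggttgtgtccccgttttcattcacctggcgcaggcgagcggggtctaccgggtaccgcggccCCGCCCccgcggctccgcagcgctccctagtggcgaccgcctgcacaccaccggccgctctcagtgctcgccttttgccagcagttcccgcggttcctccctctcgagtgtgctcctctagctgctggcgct

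The TCF/LEF letters, the binding motif of β-catenin's nuclear partners, matched 2 times in the Dkk1 promoter and 1 time in that of Frzb, and 0 times in those of Sfrp5, Sfrp2, Wif1 and Sost. The SOX letters matched in none of the 6. These matches are descriptions of the sequence and were not tied to any measurement here.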

How the data were processed

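RNA of costal chondrocytes from 8 mice, 4 WT and 4 Mir324-null, was sequenced after library preparation with a low-input kit, per the labels' protocols. The authors deposited 1 table of TPM values with 1 column per library. Kallisto and DESeq2 are named without versions, per the submitters' processing notes, which name the human build GRCh38 although the identifiers are mouse genes; no source used here gives the transcriptome. Of 52865 rows, 813 repeated 273 identifiers with equal values and were counted once, after which each column summed to 1000000. The repeats lift every deposited column past that total, most in null replicate 3, whose unit was therefore recorded as other and which was used as TPM too. TPM keeps no depth, so no counting interval is given.

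The 13910 genes that reached 1 TPM in 4 libraries or more were fitted on log2(TPM + 1). The model held genotype alone and used limma 3.58.1 (R 4.3.3) with a trended prior and p-values adjusted by Benjamini-Hochberg. Fold changes on that scale understate those of low genes. The fit and the permutation test were tested on simulated data. The members, lists and named genes (all 9 members; the 3 most abundant genes of each list; the 3 genes most like each of the 3 most abundant members) were chosen with earlier results of these data known. The alternatives tried were a pseudocount of 0.1, median-of-ratios scaling, other filters, the replicate number as a block, array quality weights and leaving out each library.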

Additional observations from a re-analysis of the deposited data

Results flagged for a closer look

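Null replicate 3 was far from the other 3 null libraries for Notum, at 21.5 TPM against 28.2 to 29.1 TPM, and for Lgr4, at 14.9 TPM against 26.7 to 27.2 TPM. These were the flags among 50 groups of 4 libraries examined for a single distant library, where chance gives about 1 in 20 (5%). Notum at this level was not unusual across genotypes, since WT replicates 1 and 3 were at 20.7 and 21 TPM. Lgr4 was lower there than in any WT library (22.8 TPM or more). The same library stood apart in its overall profile, and the part of RNA quality in these values was not tested.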

How the results depend on the processing

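The count of antagonists past the threshold was 0 under all 14 alternatives, and so was that of the 53 other Wnt pathway genes. The count over all genes, 3, became 5 with a pseudocount of 0.1, 0 without a filter, 0 with a mean TPM of at least 1 and 0 with the replicate block (limma, with 1254, 575 and 632 genes at an unadjusted p under 0.05 against 577), and ranged from 0 to 6 with 1 library left out (6 without WT replicate 2, 1 without WT replicate 3, 0 without WT replicate 4). All 98 recomputed fold changes of antagonists moved by less than the spread within groups. With 4 libraries per genotype, leaving 1 out could not move a value further than that. The other filters and the replicate block leave the fold change as it was, so only the remaining alternatives could have shown a larger move. Sfrp5 was negative under all 14. It ran from -1.02 to -0.74 with 1 library left out and from -1.08 (pseudocount 0.1) to -0.63 (array quality weights) otherwise. Because its groups did not overlap, only the change of scaling could have turned its sign, so the constant sign is no support. The sign changed in 2 of 14 for Frzb, 3 for Sfrp2 and 4 for Wif1. Residuals of same-numbered libraries correlated between -0.0474 and 0.114, over 0.1 in 2 of 4 pairs, and 2 of 4 WT libraries matched their own number best, so the numbers were not taken as pairs; with the replicate block 0 antagonists passed and the log2 fold change of Sfrp5 was -0.87 (SE 0.24). Depth is unknown, so how many reads stand behind the low values of Sfrp5, Dkk1 and Sost cannot be given.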

Other observations

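The 2 ligand genes Wnt16 and Wnt7a were high in a single library; these genes and Lgr6 were chosen after their values were seen. Wnt16, a ligand gene, was at 4.43 TPM in WT replicate 3 and at 0.110 to 0.460 TPM in the other 7 libraries. Wnt7a was at 1.27 TPM in null replicate 4 and did not exceed 0.0150 TPM elsewhere. Lgr6, an R-spondin receptor gene, varied within both genotypes, from 1.54 to 6.45 TPM in WT and from 2.26 to 5.38 TPM in the null group. WT replicate 3 had the highest Lgr6, the highest sum of perichondrium and fibroblast markers, 2363 TPM, and the highest Dkk3.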
